A study of Mus musculus with 12 samples.

Results

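The 50 genes described here drive the cell through its division cycle. They were chosen by name, as listed S phase and mitosis genes, and matched to the array's probes through current and older symbols. Of the 50, 48 had a probe and a value on every array, among 19705 genes tested in all. Their probes carried an older symbol in 5 cases: Cdk1 (as Cdc2a), Cdt1 (as Ris2), Gins2 (as 4833427B12Rik), Ndc80 (as Kntc2) and Nuf2 (as Cdca1). Ccnb1 and Ube2c had no named probe and were not analysed here. The 48 comprised 16 S phase genes, 31 mitosis genes and Ccnd1, the cyclin that acts before S phase.

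RNA came from mouse aortic arches, on 12 two-colour arrays. The Apoe-/- mice lack apolipoprotein E, which clears lipoproteins from blood, and develop atherosclerosis; they ate a diet with 21% fat and 0.15% cholesterol from 8 weeks of age and were studied after 8 weeks (pools 1, 2 and 3), 16 weeks (pools 4, 5 and 6) or 24 weeks (pools 10, 11 and 12). Wild type C57BL/6 mice ate the same diet from the same age and were studied only after 16 weeks (pools 16, 17 and 18). Every pool joined the arches of 3 fasted mice, except pool 2, which held 2, and each array set 1 pool in Cy5 against a common reference in Cy3. The reference was an equal mix of Apoe-/- arch RNA from the 3 diet times, labelled as RNA of 21 mice. Age rose with the length of diet, so age and diet length cannot be told apart, and neither can diet length and genotype when the 8-week or 24-week mice are set against the 16-week wild type mice. No drug was given to the Apoe-/- pools per the labels, whereas the reference is labelled as a vehicle pool. An asterisk on the labels of pools 3 and 6 is unexplained there.

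Cells that divide copy their DNA in S phase and separate it in mitosis, with gap phases before each. Cyclins switch on their partner kinases in turn: cyclin D and cyclin E open the way into S phase through the E2F factors, and cyclin A and cyclin B with Cdk1 drive mitosis. Genes of S phase are transcribed mainly under E2F, and genes of mitosis mainly later, under the DREAM, B-Myb and FoxM1 complexes, so that their transcripts mark dividing cells. In atherosclerotic arteries, macrophages and smooth muscle cells are the cells best known to divide.

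All values below are log2 ratios of a pool to the reference, so 0 means the level of the mixed Apoe-/- arch. They carry no level of a gene, and the labelled tissue could not be checked by the level of its markers. Apoe checked the genotype labels: its ratio ran between -0.20 and 0.23 over the 9 Apoe-/- pools and was 2.62, 2.01 and 2.85 in wild type pools 16, 17 and 18. Across probes, the arrays at 24 weeks correlated negatively with those at 8 weeks (median r = -0.53 over 9 pairs), at 16 weeks (-0.33) and of wild type (-0.43). The labels state the dyes and the reference lies between the times, so the direction of the ratios was kept. The arrays also differed in the spread of their ratios, with an interquartile range over the genes tested of 0.126 in pool 10 and 0.538 in pool 2.

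The sequences upstream of the 50 genes differed between S phase and mitosis members. RefSeq windows on GRCm38.p6, running from 250 bases before to 50 bases after the transcription start, were found for 41 of the 50 genes. Motifs were searched on both strands and do not overlap each other in the windows printed here. The CHR, a repressor element of mitosis genes, was taken as TTTGAA or TTCGAA and lay in 21 of 28 mitosis windows (75.0%) and in 2 of 13 S phase windows (15.4%), against 19.4% of all 27025 windows in the table. The CCAAT box, bound by NF-Y, was taken as CCAAT and lay in 20 mitosis windows (71.4%) and 8 S phase windows (61.5%), against 37.9% of all windows. An E2F site, taken as TTTCCCGC, TTTCGCGC, TTTGCCGC or TTTGGCGC, lay in 6 S phase windows (46.2%: Cdc6, Cdt1, Mcm3, Mcm5, Mcm6 and Mcm7) and 1 mitosis window (3.57%: Cdk1), against 2.32% of all windows. These matches describe letters in a window and were not measured as binding. The windows printed below belong to the S phase member and to the kinetochore, spindle motor and mitotic cyclin members with the largest difference at 16 weeks, and capitals mark the motif matches.

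The window of Cdt1, which loads the replicative helicase, lies at chr8:122567765-122568064 on the plus strand and holds an E2F site 33 bases after the start.
Cdt1: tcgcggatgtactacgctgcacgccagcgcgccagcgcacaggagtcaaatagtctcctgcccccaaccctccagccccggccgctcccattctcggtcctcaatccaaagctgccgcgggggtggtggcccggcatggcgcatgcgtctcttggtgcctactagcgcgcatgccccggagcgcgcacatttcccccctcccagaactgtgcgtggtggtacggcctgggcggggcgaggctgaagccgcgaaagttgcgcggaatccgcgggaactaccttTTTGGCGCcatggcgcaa
The window of Nuf2, a kinetochore subunit, lies at chr1:169531415-169531714 on the minus strand and holds none of the 3 motifs.
Nuf2: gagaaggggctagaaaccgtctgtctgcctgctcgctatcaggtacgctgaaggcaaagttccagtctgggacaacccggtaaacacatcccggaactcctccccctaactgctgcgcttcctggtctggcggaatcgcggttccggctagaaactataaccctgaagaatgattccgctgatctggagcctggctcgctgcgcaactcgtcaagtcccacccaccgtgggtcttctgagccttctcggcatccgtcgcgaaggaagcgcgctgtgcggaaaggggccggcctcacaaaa
The window of Kif11, a spindle motor, lies at chr19:37376132-37376431 on the plus strand and holds a CCAAT box and a CHR, both read on the opposite strand.
Kif11: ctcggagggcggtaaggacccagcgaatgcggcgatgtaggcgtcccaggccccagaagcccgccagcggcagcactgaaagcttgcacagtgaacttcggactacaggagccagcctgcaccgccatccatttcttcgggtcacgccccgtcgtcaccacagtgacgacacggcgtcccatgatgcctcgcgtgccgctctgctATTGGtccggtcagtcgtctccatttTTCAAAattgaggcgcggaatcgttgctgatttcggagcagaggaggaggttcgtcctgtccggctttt
The window of Ccnb2, cyclin B2, lies at chr9:70421505-70421804 on the minus strand and holds 3 CCAAT boxes and a pair of CHR matches.
Ccnb2: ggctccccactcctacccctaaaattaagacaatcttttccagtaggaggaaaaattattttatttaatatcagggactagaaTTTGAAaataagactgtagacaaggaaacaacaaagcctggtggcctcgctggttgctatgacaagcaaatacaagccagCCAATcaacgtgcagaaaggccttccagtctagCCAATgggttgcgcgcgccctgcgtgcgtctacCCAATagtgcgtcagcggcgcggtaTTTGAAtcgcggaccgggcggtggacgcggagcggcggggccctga

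After 16 weeks of diet in both genotypes, 24 of the 48 genes were higher in Apoe-/- arches than in wild type arches and 0 were lower. Among all genes tested, 6.03% were called higher and 4.07% lower (limma, adjusted p under 0.05). The largest rises were those of Cdca8, Cdca3, Mki67 and Nuf2, all genes of mitosis. The median difference over the 48 genes was 0.42, against -0.03 over all genes, and 12 of the genes called rose at least 2-fold. In 29 of the 48 genes every Apoe-/- pool lay above every wild type pool (13.5% of all genes) and in 2, Anln and Mcm6, every Apoe-/- pool lay below (17.9% of all genes). Another 6 genes had an unadjusted p under 0.05 without a call: Gins2, Kif20a, Nusap1 and Racgap1 leaned upward, and Anln and Mcm6 downward. With called genes included, 28 of the 48 lay above at this level (58.3%, against 10.5% of all genes) and 2 below (4.17%, against 11.7%). Because whole arches were measured, more cells of a dividing type and more RNA per cell cannot be told apart. Under quantile normalization of the arrays, 18 of the 24 calls were lost and 6 were kept (Aurkb, Ccne1, Cdca8, Cdk1, Foxm1 and Rrm2), while 2.03% of all genes were called higher.

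Against the same wild type pools, the Apoe-/- arches at 24 weeks had 34 of the 48 genes higher and 1, Anln, lower, where 11.6% of all genes were higher and 11.3% lower. The 24 genes higher at 16 weeks were all among the 34. The other 10 were Aurka, Gins2, Kif20a, Nusap1, Pcna, Prc1, Racgap1, Rrm1, Top2a and Tyms, of which Gins2 and Rrm1 were also called between 24 and 16 weeks. The call on Prc1, which bundles microtubules of the central spindle, came from 1 of its probes: they gave 0.87 (adjusted p = 0.00202) and 0.01 (adjusted p = 0.95). The median difference was 0.60, against -0.04 over all genes, and 19 genes rose at least 2-fold. In 36 genes every pool at 24 weeks lay above every wild type pool (20.0% of all genes), and in 2, Anln and Kif23, below (29.2% of all genes). At 8 weeks, 1 gene was called higher than in wild type, Kif2c, and 0 lower, where 1.76% of all genes were higher and 0.736% lower. The 8-week pools all lay above wild type in 14 genes (9.26% of all genes) and below in 2 (10.5%). The comparisons with wild type share the 3 wild type pools.

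**Figure D1:**
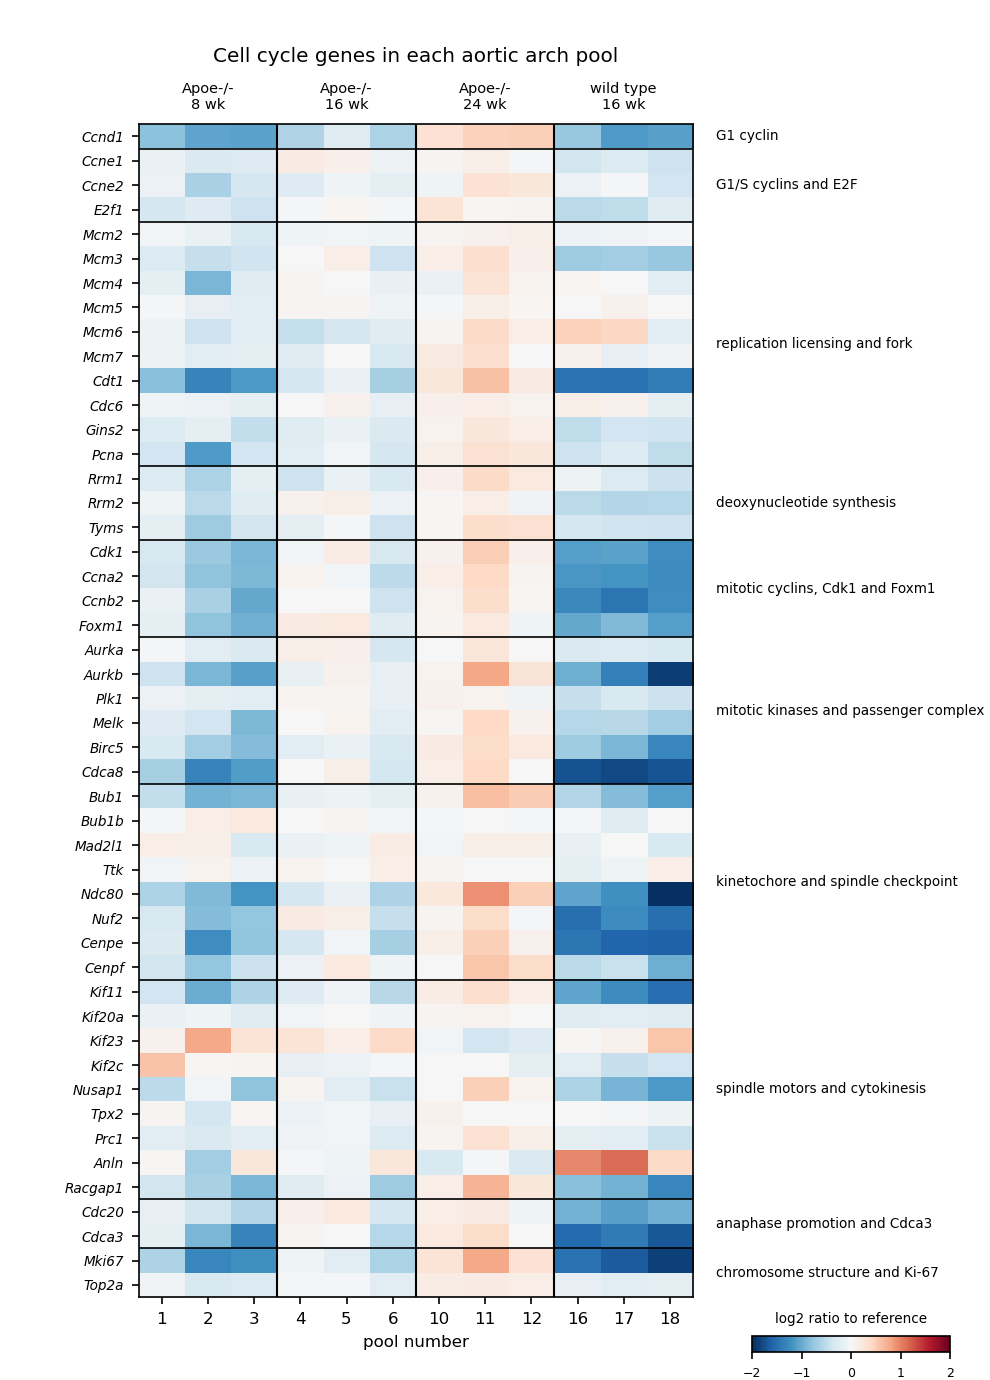
Log2 ratio to the reference of the 48 measured genes (rows, grouped by role) in the 12 pools (columns; 8, 16 and 24 weeks of diet in Apoe-/- mice, then wild type at 16 weeks); colour runs from -2 to 2. Most rows of mitosis genes are lowest in the wild type pools, where Cdca8 stood at -1.74, -1.80 and -1.72, and highest in the 24-week pools, while several helicase rows stay close to 0 throughout.

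Ccnd1, cyclin D1, which couples growth signals to the cycle, was among the genes with a rise over diet time. It stood at -0.82, -1.05 and -1.07 in the 8-week pools, -0.60, -0.25 and -0.63 in the 16-week pools, 0.29, 0.46 and 0.47 in the 24-week pools, and -0.76, -1.13 and -1.09 in the wild type pools. The 24-week pools lay above all others, the 16-week pools above those of wild type, and the 8-week and wild type pools overlapped. Ccnd1 was 1.86-fold higher at 24 than at 16 weeks (log2 difference 0.90 ± 0.13 SE, n = 3 pools per group, 95% interval 1.53 to 2.27, adjusted p = 0.00622) and 2.63-fold higher at 24 weeks than in wild type (2.16 to 3.20, adjusted p = 1.68e-05). At 16 weeks it was 1.41-fold higher than in wild type (0.50 ± 0.13, adjusted p = 0.0315), a call that was lost without pool 4, 5, 17 or 18 (adjusted p 0.0573 to 0.134). That call was also lost in a fit of these groups alone, and the difference turned to -0.19 under quantile normalization (adjusted p = 0.486).

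At 24 weeks the genes that open S phase differed from wild type by less than Ccnd1 did (0.32 to 0.56, against 1.4). At 16 weeks the differences of E2f1 and Ccne1 were close to that of Ccnd1 (0.50). E2f1, the factor that switches on S phase genes, stood at -0.34, -0.26 and -0.41 at 8 weeks, -0.04, 0.04 and -0.02 at 16 weeks, 0.28, 0.04 and 0.06 at 24 weeks, and -0.54, -0.51 and -0.25 in wild type. Its 16-week and 24-week pools lay above those of wild type, and its 8-week pools overlapped them. E2f1 was 1.35-fold higher at 16 weeks (0.43 ± 0.09, adjusted p = 0.0136) and 1.47-fold higher at 24 weeks (0.56 ± 0.09, adjusted p = 0.00126) than in wild type. The call at 16 weeks was lost without pool 5, 16 or 17 (adjusted p 0.0537 to 0.0676) and under quantile normalization (0.34, adjusted p = 0.128). Ccne1, cyclin E1, was 1.33-fold higher than in wild type at 16 weeks (0.41 ± 0.09, adjusted p = 0.0108), a call lost without pool 4 (adjusted p = 0.0561). Ccne2, cyclin E2, differed by -0.00 ± 0.15 at 16 weeks (adjusted p = 0.998), where its pools overlapped those of wild type.

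Replication licensing and the replication fork gave 2 higher of 10 genes at 16 weeks and 4 of 10 at 24 weeks against wild type. Cdt1, which loads the helicase onto origins and whose window holds the E2F site shown above, stood at -0.83, -1.33 and -1.15 at 8 weeks, -0.33, -0.13 and -0.66 at 16 weeks, 0.23, 0.59 and 0.18 at 24 weeks, and -1.47, -1.50 and -1.40 in wild type. No Apoe-/- pool reached down to the wild type pools, and the 3 diet times did not overlap each other. Cdt1 was 2.11-fold higher at 16 weeks (1.08 ± 0.16, 95% interval 1.65 to 2.69, adjusted p = 0.00135) and 3.45-fold higher at 24 weeks (1.78 ± 0.16, 2.70 to 4.40, adjusted p = 1.34e-05) than in wild type. Under quantile normalization the call at 16 weeks was lost (0.28, adjusted p = 0.444).

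Of the 6 MCM genes, which encode the ring of the replicative helicase, Mcm3 was called higher than in wild type at 16 and 24 weeks. The others were called at neither time against wild type. Between 24 and 8 weeks Mcm2, Mcm3, Mcm4 and Mcm7 were called higher, and Mcm5 and Mcm6 were called in no comparison. The calls on Mcm2, Mcm4 and Mcm7 were lost in 5, 11 and 9 of 18 alternative settings. Mcm3 stood at -0.27, -0.46 and -0.40 at 8 weeks, -0.01, 0.14 and -0.42 at 16 weeks, 0.14, 0.34 and 0.10 at 24 weeks, and -0.71, -0.70 and -0.76 in wild type. It was 1.55-fold higher at 16 weeks (0.63 ± 0.13, adjusted p = 0.0086) and 1.89-fold higher at 24 weeks (0.92 ± 0.13, adjusted p = 0.000324), although the call at 16 weeks was lost under quantile normalization (0.40, adjusted p = 0.203). Mcm6 leaned the other way: it stood at -0.10, -0.42 and -0.21 at 8 weeks, -0.48, -0.34 and -0.25 at 16 weeks, 0.05, 0.38 and 0.13 at 24 weeks, and 0.46, 0.41 and -0.22 in wild type. Wild type pool 18 lay far below pools 16 and 17 and just above the 16-week pools, and the difference at 16 weeks was -0.57 ± 0.17 (adjusted p = 0.056). Mcm2, Mcm4, Mcm5 and Mcm7 differed from wild type at 16 weeks by 0.00, 0.03, -0.02 ± 0.07 and -0.13 ± 0.11, and Cdc6, the partner of Cdt1 in loading, by -0.03 ± 0.09 (adjusted p = 0.928). These 5 genes had overlapping Apoe-/- and wild type pools at 16 weeks.

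Pcna, the sliding clamp of the fork, stood at -0.39, -1.13 and -0.38 at 8 weeks, -0.21, -0.05 and -0.33 at 16 weeks, 0.11, 0.31 and 0.23 at 24 weeks, and -0.41, -0.27 and -0.51 in wild type. Pool 2 was by far the lowest, the 24-week pools were above all others, and the 16-week and wild type pools overlapped. Pcna differed from wild type by 0.20 ± 0.17 at 16 weeks (adjusted p = 0.607) and was 1.53-fold higher at 24 weeks (0.61 ± 0.17, adjusted p = 0.0275). The call at 24 weeks was lost without pool 11, 12, 16 or 18 (adjusted p 0.0692 to 0.0957). Gins2, a subunit of the active helicase, differed by 0.21 ± 0.09 at 16 weeks (adjusted p = 0.2) and was 1.49-fold higher than in wild type at 24 weeks (0.57 ± 0.09, adjusted p = 0.00073).

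All 3 genes of deoxynucleotide synthesis were higher than in wild type at 24 weeks (11.6% of all genes), and 1 of them at 16 weeks (6.03%). Rrm2, the small subunit of ribonucleotide reductase, stood at -0.08, -0.54 and -0.24 at 8 weeks, 0.09, 0.11 and -0.12 at 16 weeks, 0.02, 0.14 and -0.07 at 24 weeks, and -0.54, -0.59 and -0.57 in wild type. Its 16-week and 24-week pools covered the same range, well above wild type. Rrm2 was 1.51-fold higher at 16 weeks (0.59 ± 0.11, adjusted p = 0.00629) and 1.51-fold at 24 weeks (0.59 ± 0.11, adjusted p = 0.00283). Rrm2 had a pair of probes that disagreed: at 16 weeks they gave 1.18 (adjusted p = 0.00599) and 0.01 (adjusted p = 0.985), and at 24 weeks 1.49 (adjusted p = 0.000542) and -0.30 (adjusted p = 0.0193). Rrm1, the large subunit, differed from wild type by -0.01 ± 0.13 at 16 weeks (adjusted p = 0.979) and 0.50 ± 0.13 at 24 weeks (adjusted p = 0.0202), a call lost without pool 11, 12, 17 or 18 (adjusted p 0.0524 to 0.0882). Tyms, thymidylate synthase, differed by 0.17 at 16 weeks (adjusted p = 0.561) and by 0.62 at 24 weeks (adjusted p = 0.00741).

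**Figure D2:**
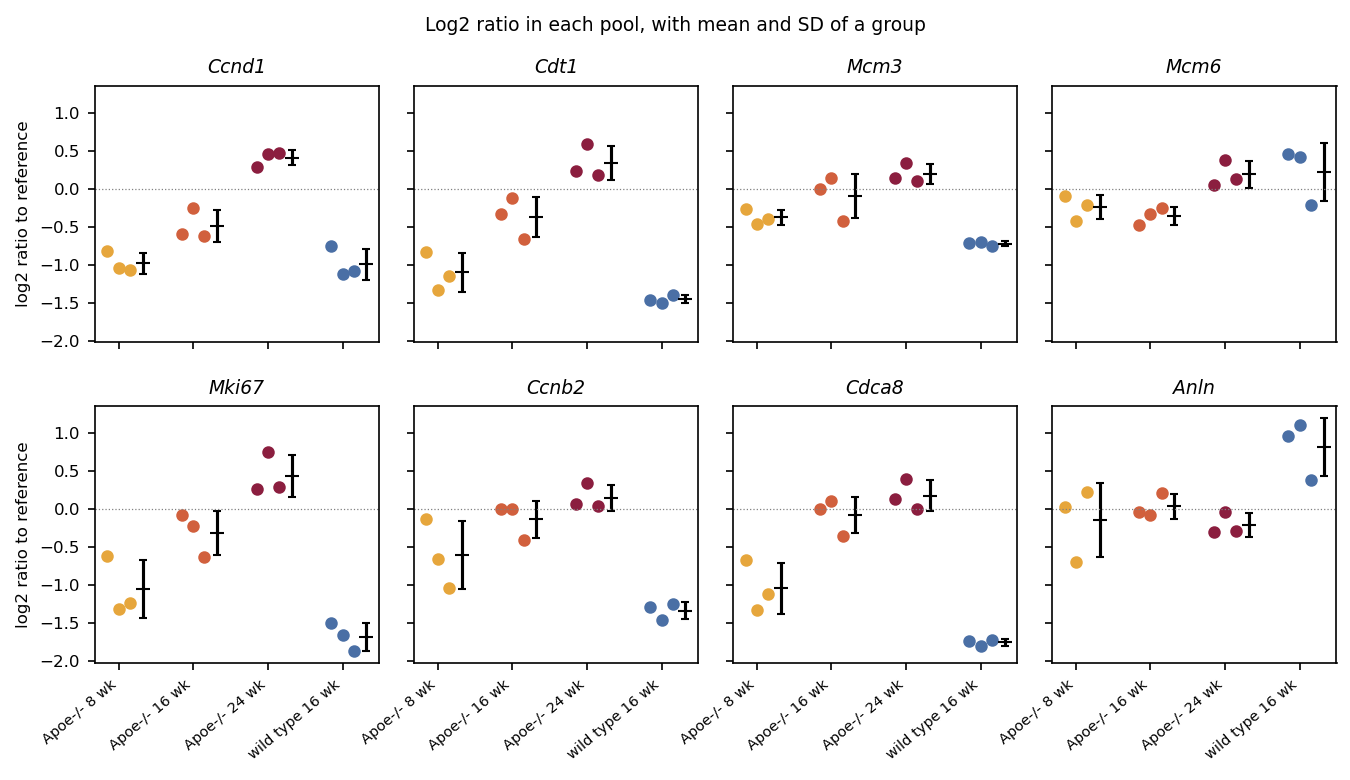
Log2 ratio to the reference of 8 genes in every pool (points), with the mean and SD of each group of 3 pools; groups run from 8 to 24 weeks of diet in Apoe-/- mice, with wild type at 16 weeks last. Cdca8, Mki67, Ccnb2, Cdt1 and Mcm3 are lowest in the wild type pools, whereas Anln is highest there (0.96, 1.11 and 0.39).

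The mitotic cyclins, Cdk1 and Foxm1 were all higher in Apoe-/- arches, 4 of 4 at both 16 weeks (6.03% of all genes) and 24 weeks (11.6%). Ccnb2, whose window holds the CCAAT boxes and CHR matches shown above, stood at -0.13, -0.65 and -1.03 at 8 weeks, 0.01, 0.01 and -0.41 at 16 weeks, 0.07, 0.35 and 0.04 at 24 weeks, and -1.29, -1.46 and -1.25 in wild type. The 8-week pools were spread widely, and every Apoe-/- pool lay above every wild type pool. Ccnb2 was 2.30-fold higher at 16 weeks (1.20 ± 0.20, 95% interval 1.69 to 3.11, adjusted p = 0.00277) and 2.80-fold higher at 24 weeks (1.49 ± 0.20, adjusted p = 0.000252), and the call at 16 weeks was lost under quantile normalization (0.62, adjusted p = 0.0724). Cdk1, the kinase that drives mitosis, was 2.10-fold higher at 16 weeks (1.07 ± 0.17, adjusted p = 0.00194). Ccna2, cyclin A2, was 2.05-fold higher at 16 weeks (1.03 ± 0.17, adjusted p = 0.00275), a call lost under quantile normalization (0.47, adjusted p = 0.193). Foxm1, which activates mitosis genes, was 2.06-fold higher at 16 weeks (1.04 ± 0.18, adjusted p = 0.00385).

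Among mitotic kinases and the chromosomal passenger complex, 5 of 6 genes were higher at 16 weeks (6.03% of all genes). At 24 weeks 6 of 6 were higher (11.6% of all genes). Cdca8 (borealin), which carries the passenger complex to the centromere, stood at -0.67, -1.33 and -1.11 at 8 weeks, 0.01, 0.11 and -0.35 at 16 weeks, 0.13, 0.40 and -0.00 at 24 weeks, and -1.74, -1.80 and -1.72 in wild type. The wild type pools lay close together and far below all Apoe-/- pools, and the 8-week pools lay between them and the later times. Cdca8 was 3.20-fold higher at 16 weeks (1.68 ± 0.17, 95% interval 2.47 to 4.15, adjusted p = 0.000104) and 3.80-fold higher at 24 weeks (1.93 ± 0.17, 2.93 to 4.93, adjusted p = 1.21e-05). Aurkb, the kinase of the passenger complex, was 2.51-fold higher at 16 weeks (1.33 ± 0.25, adjusted p = 0.0057) and 3.42-fold at 24 weeks (1.78 ± 0.25, adjusted p = 0.000363).

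The passenger subunit Birc5 (survivin) rose by 0.76 at 16 weeks (adjusted p = 0.0113), Plk1, a kinase of spindle assembly, by 0.39 ± 0.08 (adjusted p = 0.01) and Melk, a kinase of the cycle, by 0.56 (adjusted p = 0.0451). All 3 calls were lost under quantile normalization (adjusted p = 0.0977 for Birc5, 0.0602 for Plk1 and 0.127 for Melk). The call on Plk1 was also lost without pool 4 (adjusted p = 0.0523), and that on Melk without pool 4, 5, 6, 10, 12, 16, 17 or 18 (adjusted p 0.0526 to 0.141). Aurka, the kinase of the spindle poles, differed by 0.25 at 16 weeks (adjusted p = 0.264). Its probes gave 0.78 (adjusted p = 0.00846) and -0.28 (adjusted p = 0.343). At 24 weeks Aurka was called higher (0.37, adjusted p = 0.0492), and the call was lost without pool 3, 4, 5, 10, 11, 12, 16, 17 or 18 (adjusted p 0.0528 to 0.183). The call was also lost under quantile normalization (adjusted p = 0.0889). It came from 1 of the probes of Aurka, which gave 0.84 (adjusted p = 0.00244) and -0.10 (adjusted p = 0.695) at 24 weeks.

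Of 8 genes of the kinetochore and the spindle checkpoint, the same 5 were higher at 16 and at 24 weeks: Bub1, Cenpe, Cenpf, Ndc80 and Nuf2. They made up 62.5% of the 8, against 6.03% of all genes at 16 weeks and 11.6% at 24 weeks. Nuf2 and Ndc80 form the arm that grips microtubules. Nuf2 stood at -0.32, -0.87 and -0.77 at 8 weeks, 0.16, 0.11 and -0.46 at 16 weeks, 0.05, 0.37 and -0.02 at 24 weeks, and -1.51, -1.26 and -1.51 in wild type. Pool 6 lay well below pools 4 and 5, and every Apoe-/- pool lay above every wild type pool. Nuf2 was 2.58-fold higher at 16 weeks (1.37 ± 0.19, 95% interval 1.93 to 3.44, adjusted p = 0.000799) and 2.95-fold higher at 24 weeks (1.56 ± 0.19, adjusted p = 0.00012). The call at 16 weeks was lost under quantile normalization (0.77, adjusted p = 0.0576).

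Ndc80 stood at -0.64, -0.88 and -1.19 at 8 weeks, -0.34, -0.14 and -0.62 at 16 weeks, 0.21, 0.91 and 0.48 at 24 weeks, and -1.06, -1.23 and -2.08 in wild type. Pool 18 of wild type was the lowest, pool 11 of the 24-week group the highest, and the 3 diet times did not overlap. Ndc80 was 3.96-fold higher at 24 weeks (1.99 ± 0.27, 2.64 to 5.95, adjusted p = 0.000249) and 2.12-fold higher at 16 weeks (1.09 ± 0.27, adjusted p = 0.0238). The call at 16 weeks was lost without pool 4, 5 or 18 (adjusted p 0.0508 to 0.0894) and under quantile normalization (0.30, adjusted p = 0.56). Cenpe, a kinetochore motor, was higher by 1.20 ± 0.22 at 16 weeks (adjusted p = 0.00508), a call lost under quantile normalization (0.37, adjusted p = 0.359). Cenpf, a kinetochore protein, was higher by 0.65 at 16 weeks (adjusted p = 0.0392), a call lost without pool 4, 5, 6, 12, 16 or 18 (adjusted p 0.0587 to 0.134), without pools 3 and 6 together, and under quantile normalization (0.52, adjusted p = 0.0793). Bub1, a checkpoint kinase, was higher by 0.70 at 16 weeks (adjusted p = 0.0202), a call lost without pool 4, 5, 17 or 18 (adjusted p 0.0646 to 0.0725). The call on Bub1 was also lost without pools 3 and 6 together and under quantile normalization (adjusted p = 0.0973). The remaining checkpoint genes Bub1b, Mad2l1 and Ttk were called in none of the 6 comparisons, and their ratios lay between -0.31 and 0.19 in all pools.

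The spindle motors and cytokinesis genes were the most mixed group, with 1 of 9 higher at 16 weeks (11.1%, against 6.03% of all genes). At 24 weeks 5 of 9 were higher (55.6%, against 11.6% of all genes) and 1 lower (against 11.3%). Kif11, the motor that pushes the spindle poles apart, stood at -0.38, -0.99 and -0.61 at 8 weeks, -0.26, -0.07 and -0.56 at 16 weeks, 0.15, 0.33 and 0.14 at 24 weeks, and -1.05, -1.26 and -1.53 in wild type. Its wild type pools lay below all Apoe-/- pools, although pool 2 came close to them. Kif11 was 1.97-fold higher at 16 weeks (0.98 ± 0.17, 95% interval 1.51 to 2.57, adjusted p = 0.00407) and 2.80-fold higher at 24 weeks (1.49 ± 0.17, adjusted p = 9.52e-05), and the call at 16 weeks was lost under quantile normalization (0.33, adjusted p = 0.24). Tpx2, which nucleates spindle microtubules, differed by -0.07 ± 0.10 at 16 weeks (adjusted p = 0.791). Racgap1, a part of the cytokinesis machinery, differed by 0.67 at 16 weeks (adjusted p = 0.0633) and was higher by 1.37 at 24 weeks (adjusted p = 0.000533).

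Anln (anillin), a scaffold of the contractile ring, ran against the other genes. It stood at 0.03, -0.69 and 0.23 at 8 weeks, -0.03, -0.08 and 0.22 at 16 weeks, -0.30, -0.03 and -0.29 at 24 weeks, and 0.96, 1.11 and 0.39 in wild type. All wild type pools lay above all Apoe-/- pools, and the 3 diet times overlapped. Anln was 2.03-fold lower at 24 weeks than in wild type (-1.02 ± 0.23, adjusted p = 0.00848), and differed by -0.78 ± 0.23 at 16 weeks (adjusted p = 0.0604) and -0.96 ± 0.23 at 8 weeks (adjusted p = 0.0591). Kif23, a motor of the central spindle, was the other gene called lower anywhere, between 24 and 8 weeks. It stood at 0.09, 0.75 and 0.28 at 8 weeks, 0.27, 0.13 and 0.39 at 16 weeks, -0.05, -0.38 and -0.26 at 24 weeks, and 0.02, 0.08 and 0.55 in wild type. Its 24-week pools lay below all others. Kif23 was 1.52-fold lower at 24 than at 8 weeks (-0.60 ± 0.18, adjusted p = 0.0299), a call lost without pool 2, 11 or 12 (adjusted p 0.0875 to 0.111). That call was also lost in a fit of these groups alone and without pools 3 and 6 together.

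Cdca3, and Cdc20 of the anaphase-promoting complex, were higher at 16 and at 24 weeks. Cdca3, which promotes entry into mitosis by removing Wee1, stood at -0.18, -0.91 and -1.33 at 8 weeks, 0.05, -0.00 and -0.57 at 16 weeks, 0.19, 0.37 and 0.01 at 24 weeks, and -1.56, -1.42 and -1.69 in wild type. The 8-week pools spanned most of the distance between the later times and wild type, and overlapped the 16-week pools. Cdca3 was 2.60-fold higher at 16 weeks (1.38 ± 0.25, 95% interval 1.77 to 3.83, adjusted p = 0.00499) and 3.35-fold higher at 24 weeks (1.74 ± 0.25, adjusted p = 0.000457), and the call at 16 weeks was lost under quantile normalization (0.64, adjusted p = 0.175). Cdc20, which activates the anaphase-promoting complex, was 1.97-fold higher at 16 weeks (0.98 ± 0.14, adjusted p = 0.00133), a call also lost under quantile normalization (0.66, adjusted p = 0.0592).

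Mki67, whose product Ki-67 coats mitotic chromosomes and is the common stain for cycling cells, stood at -0.61, -1.31 and -1.23 at 8 weeks, -0.08, -0.22 and -0.63 at 16 weeks, 0.27, 0.76 and 0.29 at 24 weeks, and -1.50, -1.66 and -1.87 in wild type. The wild type pools were the lowest, the 24-week pools the highest, and pool 6 of the 16-week group fell just below pool 1 of the 8-week group. Mki67 was 2.59-fold higher at 16 weeks (1.37 ± 0.21, 95% interval 1.88 to 3.56, adjusted p = 0.0016) and 4.34-fold higher at 24 weeks (2.12 ± 0.21, 3.15 to 5.97, adjusted p = 2.75e-05). Quantile normalization ended its call at 16 weeks (0.48, adjusted p = 0.219). Top2a, the topoisomerase that untangles sister chromosomes, stood at -0.07, -0.31 and -0.27 at 8 weeks, -0.04, -0.04 and -0.23 at 16 weeks, 0.15, 0.17 and 0.14 at 24 weeks, and -0.16, -0.23 and -0.19 in wild type. Top2a differed by 0.09 ± 0.08 at 16 weeks (adjusted p = 0.612) and was 1.27-fold higher than in wild type at 24 weeks (0.35 ± 0.08, adjusted p = 0.00778).

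**Figure D3:**
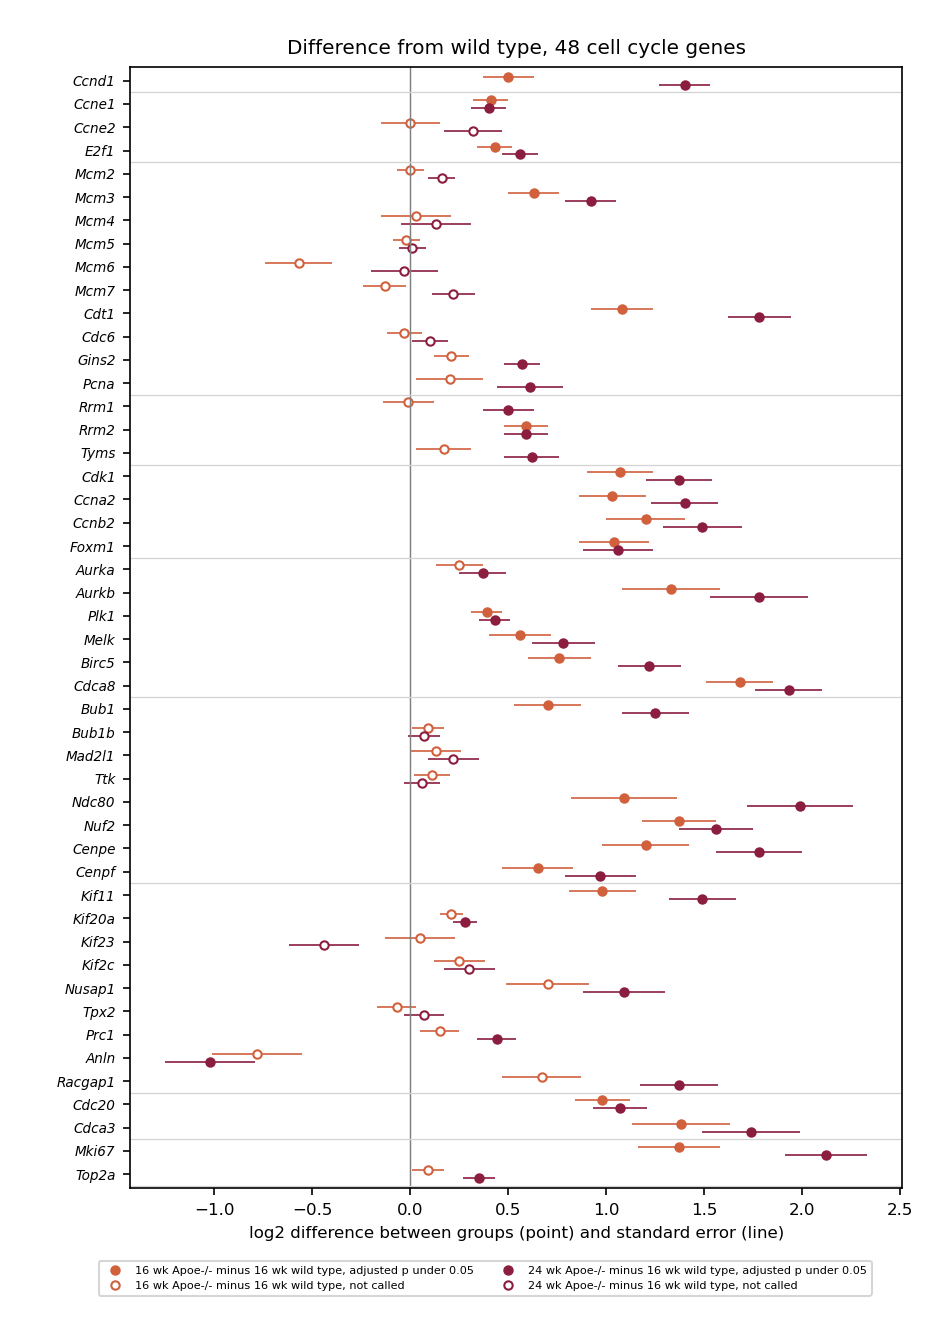
Log2 difference, with its standard error, of each of the 48 genes at 16 weeks and at 24 weeks in Apoe-/- arches minus wild type arches at 16 weeks; filled symbols have an adjusted p under 0.05. Mki67 lies furthest to the right at 24 weeks (2.12) and Cdca8 at 16 weeks (1.68), and Anln lies furthest to the left at both.

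After 8 weeks of diet, the single call against wild type, Kif2c, made up 2.08% of the 48 genes, near the 1.76% of all genes. At an unadjusted p under 0.05, 17 of the 48 genes lay above wild type (35.4%, against 9.63% of all genes) and 4 below, Anln, Mcm4, Mcm5 and Mcm6 (8.33%, against 11.8%). Cdca8 differed by 0.71 ± 0.17 (adjusted p = 0.0553), Nuf2 by 0.78 ± 0.19 (adjusted p = 0.0587), Mki67 by 0.63 ± 0.21 (adjusted p = 0.134) and Ccnd1 by 0.01 ± 0.13 (adjusted p = 0.971). Kif2c, a motor that takes microtubules apart, stood at 0.57, 0.03 and 0.05 at 8 weeks, against -0.23, -0.46 and -0.39 in wild type. Pool 1 held the high value, and all 3 pools lay above wild type. Kif2c was 1.49-fold higher (0.58 ± 0.13, adjusted p = 0.0482), a call lost without pool 3, 4, 5, 6, 10, 11, 12, 16, 17 or 18 (adjusted p 0.0511 to 0.193). The call was also lost under quantile normalization (adjusted p = 0.329), in a fit of these groups alone and without pools 3 and 6 together. In these settings, in this order, 0.0%, 0.117% and 1.21% of all genes were called higher.

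Over diet time in Apoe-/- mice, the difference was clearest between its ends. At 24 weeks 35 of the 48 genes were higher than at 8 weeks and 1, Kif23, lower, where 14.7% of all genes were higher and 14.1% lower. In 41 genes every 24-week pool lay above every 8-week pool (20.9% of all genes) and in 2, Kif2c and Kif23, below (23.9%). The median difference was 0.55, against -0.02 over all genes. Cdt1 rose 2.71-fold between these times (adjusted p = 0.000124), Mki67 2.81-fold (95% interval 2.04 to 3.87, adjusted p = 0.000524), Ndc80 2.70-fold (adjusted p = 0.00282) and Ccnd1 2.61-fold (adjusted p = 4.23e-05). Without pool 11, the count of genes higher at 24 than at 8 weeks fell to 22, where 8.77% of all genes were higher. A fit of these groups alone gave 23, where 9.51% of all genes were higher. The 38 genes with group means in the order 8, 16, 24 weeks made up 79.2% of the 48, against 29.3% of all genes, and the wild type mean was the lowest of the 4 in 34 genes (70.8%, against 21.5%).

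Fewer genes were called between neighbouring times. At 16 weeks Cdca8 and Cdt1 were higher than at 8 weeks and 0 genes were lower, where 1.89% of all genes were higher and 0.507% lower. Another 21 of the 48 had an unadjusted p under 0.05, of which Kif2c leaned downward. With called genes included, 22 of the 48 lay above at this level (45.8%, against 8.49% of all genes) and 1 below (2.08%, against 6.58%). Cdca8 rose 1.95-fold (0.96 ± 0.17, adjusted p = 0.0145), a call lost without pool 3, 4 or 5 (adjusted p 0.0518 to 0.0757). Cdt1 rose 1.66-fold between 8 and 16 weeks (0.73 ± 0.16, adjusted p = 0.0389), a call lost without pool 2, 3, 4, 5, 10, 12, 16, 17 or 18 (adjusted p 0.0544 to 0.163). The 16-week pools all lay above the 8-week pools in 14 genes (8.73% of all genes) and below in 1, Kif2c (7.63%). Both calls were lost under quantile normalization (adjusted p = 0.129 for Cdca8 and 0.707 for Cdt1), in a fit of these groups alone and without pools 3 and 6 together. Of all genes, 0.00507% were called higher between these times under quantile normalization and 0.614% without pools 3 and 6. The call on Cdt1 was also lost under array weights.

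At 24 weeks, 4 genes were higher than at 16 weeks and 0 lower, where 3.98% of all genes were higher and 1.96% lower. Another 16 had an unadjusted p under 0.05, of which Kif23 leaned downward. With called genes included, 19 of the 48 lay above at this level (39.6%, against 11.8% of all genes) and 1 below (2.08%, against 10.5%). The called genes were Ccnd1, given above, and 3 S phase genes. The count of calls depended on the setting. It was 19 higher under quantile normalization (13.1% of all genes), 20 under array weights (15.8%) and 14 in a fit of these groups alone (10.0%). It was 1 without pools 3 and 6 (0.624%) or without pool 4, 6, 11 or 12 (0.401% to 0.797%). Cdt1 rose 1.63-fold (0.71 ± 0.16, adjusted p = 0.0279), a call lost without pool 4, 6, 10, 11 or 12 (adjusted p 0.054 to 0.127). Rrm1 stood at 0.10, 0.38 and 0.19 at 24 weeks, against -0.42, -0.13 and -0.31 at 16 weeks, with no overlap. Such separation upward held in 19 of the 48 genes (18.5% of all genes) and downward in 1, Kif23 (21.0%). Rrm1 rose 1.42-fold (0.51 ± 0.13, adjusted p = 0.0492) and the call was lost without pool 1, 4, 6, 10, 11, 12, 16 or 17 (adjusted p 0.0551 to 0.206). Gins2 rose 1.29-fold (0.37 ± 0.09, adjusted p = 0.0366) and the call was lost without pool 4, 6, 10, 11, 12, 16 or 17 (adjusted p 0.0505 to 0.161). The mitosis genes Mki67 (0.75 ± 0.21, adjusted p = 0.0634) and Ndc80 (0.90 ± 0.27, adjusted p = 0.0745) did not pass the threshold between these times in the fit of all groups.

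The S phase and mitosis genes were also summed up by pool. A score was taken as the mean log2 ratio over the 31 mitosis genes or the 16 S phase genes of a pool, and is given as a description. The mitosis score was -0.44 ± 0.20 at 8 weeks, -0.10 ± 0.14 at 16 weeks, 0.15 ± 0.14 at 24 weeks and -0.77 ± 0.11 in wild type (SD, n = 3 pools each). The S phase score was -0.36 ± 0.15 at 8 weeks, -0.13 ± 0.11 at 16 weeks, 0.15 ± 0.10 at 24 weeks and -0.32 ± 0.06 in wild type. At 8 weeks the S phase score overlapped that of wild type, whereas the mitosis score of each 8-week pool (-0.22, -0.53 and -0.59) lay above each wild type pool (-0.68, -0.74 and -0.89). The S phase score minus the mitosis score was 0.00, 0.02 and 0.24 at 8 weeks, -0.09, -0.02 and 0.02 at 16 weeks, 0.01, -0.05 and 0.04 at 24 weeks, and 0.40, 0.45 and 0.50 in wild type. The reference is itself Apoe-/- arch, so Apoe-/- scores lie near 0 by its making, and the wild type value says only that mitosis genes lay further below the Apoe-/- mix than S phase genes did. The score difference at 16 weeks minus wild type was 0.67 for mitosis genes and 0.19 for S phase genes.

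By gene, 5 of 16 S phase genes (31.2%) and 18 of 31 mitosis genes (58.1%) were higher at 16 weeks than in wild type. At 24 weeks 9 of 16 (56.2%) and 24 of 31 (77.4%) were higher than in wild type. Among all genes, 6.03% and 11.6% were higher in these comparisons. The median difference from wild type at 16 weeks was 0.10 for S phase genes and 0.70 for mitosis genes, and at 24 weeks 0.45 and 1.07. Between 24 and 8 weeks 12 of 16 S phase genes (75.0%) and 22 of 31 mitosis genes (71.0%) were higher, against 14.7% of all genes. Their medians were 0.46 and 0.70. Between 24 and 16 weeks 3 of 16 S phase genes and 0 of 31 mitosis genes were higher, where 3.98% of all genes were. Under quantile normalization 9 of 16 and 9 of 31 were higher, where 13.1% of all genes were. The differences between S phase and mitosis counts were not tested. As deposited, at an unadjusted p under 0.05, 9 of each lay above (56.2% of S phase and 29% of mitosis genes, against 11.8% of all genes). The medians were 0.30 for S phase and 0.26 for mitosis genes. Wild type had the lowest group mean in 27 of 31 mitosis genes and in 6 of 16 S phase genes. Mitosis genes with and without a CHR in the window are given side by side for 16 weeks: 11 of 20 with a match were higher, with a median of 0.66, and 4 of 6 without, with a median of 0.73. The 6 without were Birc5, Cenpe, Mad2l1, Melk, Nuf2 and Nusap1. Of the S phase genes, 2 of 6 with an E2F match were higher at 16 weeks (Cdt1 and Mcm3; median -0.03), and 3 of 7 without (median 0.20).

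**Figure D4:**
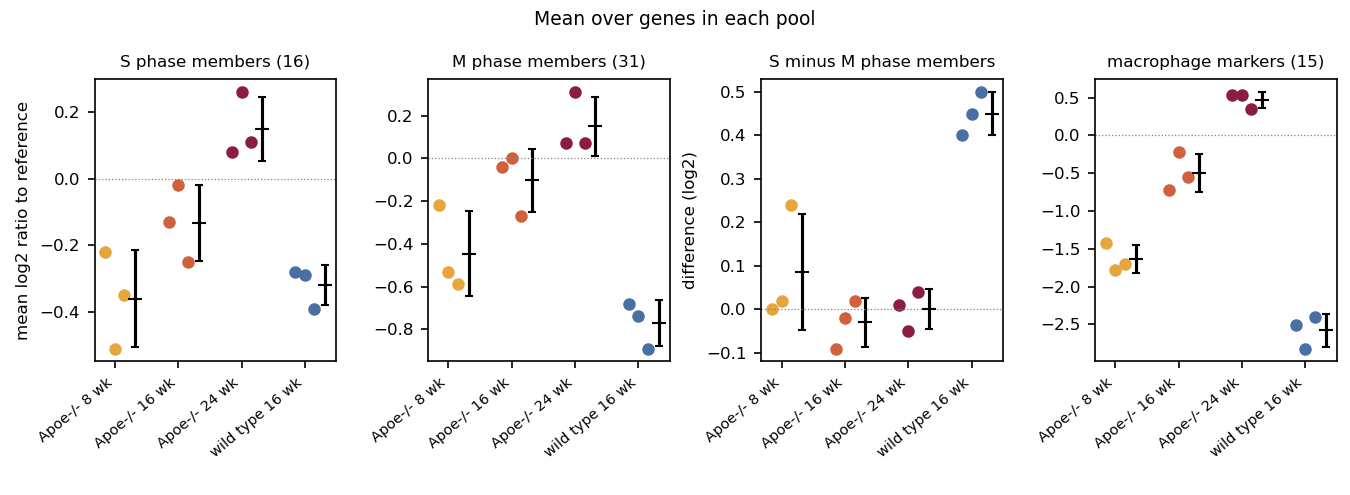
Mean log2 ratio to the reference over the 16 S phase genes, over the 31 mitosis genes, the first minus the second, and over 15 macrophage markers, in every pool (points; bars give the mean and SD of 3 pools), with wild type last. The wild type pools are the lowest for mitosis genes (-0.68, -0.74 and -0.89) and lie at 0.40 to 0.50 when mitosis is subtracted from S phase.

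Single pools moved many of the 48 genes together. Pool 1 was the highest of the 8-week pools for 38 of the 48 genes, against 31.2% of all genes, and pool 11 the highest of the 24-week pools for 39, against 35.2%. Pool 6 was the lowest of the 16-week pools for 37, against 41.5% of all genes, and pool 18 the lowest of the wild type pools for 32, against 43.3%. The score over all 48 genes was -0.23, -0.53 and -0.52 at 8 weeks, -0.09, -0.01 and -0.27 at 16 weeks, 0.08, 0.30 and 0.09 at 24 weeks, and -0.55, -0.60 and -0.73 in wild type. The groups did not overlap on it, except that pool 1 of the 8-week group lay above pool 6 of the 16-week group. The median SD of the 48 genes within a group was 0.26 at 8 weeks, 0.15 at 16 weeks, 0.14 at 24 weeks and 0.13 in wild type, against 0.17, 0.09, 0.08 and 0.10 over all genes.

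Markers of the cell types in the arch moved over the same groups. Of 15 macrophage markers, 11 were higher and 0 lower at 16 weeks than in wild type (median 1.90), and of 12 smooth muscle markers 0 were higher and 8 lower (median -0.51). Among all genes, 6.03% were higher and 4.07% lower in this comparison. The mean over macrophage markers was -1.42, -1.78 and -1.70 at 8 weeks, -0.72, -0.22 and -0.55 at 16 weeks, 0.53, 0.53 and 0.35 at 24 weeks, and -2.51, -2.82 and -2.40 in wild type, in the same order of groups as the mitosis score. Within the 16-week group the lowest pool differed: pool 4 for 11 of 15 macrophage markers (27.6% of all genes) and pool 6 for 37 of the 48 cycle genes (41.5%). The highest pool there was pool 5 for both lists (12 of 15 markers and 30 of 48 genes, against 38.8% of all genes). At 8 weeks pool 1 was the highest for both lists (9 markers and 38 genes, against 31.2% of all genes). At 24 weeks pool 11 was the highest for 39 genes (35.2% of all genes), whereas 8 markers were highest in pool 11 and 7 in pool 10. In wild type, pool 18 was the highest for 11 of 15 markers (38.4% of all genes) and the lowest for 32 of 48 genes (43.3%). Endothelial markers gave 6 higher of 11, T cell markers 3 of 10, adipocyte markers 2 of 7 and fibroblast markers 2 higher and 1 lower of 10. Thymocyte markers gave 1 higher of 10 (10.0%, against 6.03% of all genes). Markers of B cells (6), erythroid precursors (5), granulocyte precursors (7) and cardiac muscle (8) gave 0 calls at 16 weeks. They would show lymph node, blood-forming or heart tissue in an arch sample. At an unadjusted p under 0.05, 1 of them, a B cell marker, lay above wild type, as did 10.5% of all genes. Calls on group means do not show whether single pools held such tissue. The mean over B cell markers was 0.96 in pool 4, against -0.26 and -0.24 in pools 5 and 6. The mean over thymocyte markers was 0.44 in pool 10, against -0.30 and -0.52 in pools 11 and 12. The mean over cardiac muscle markers varied widely between pools, from -1.54 to 1.02 within the 16-week group and from -2.03 to -0.65 in wild type. The ratios do not show which of these markers are at or near 0 in level, and the part of these cell types in the changes of the cycle genes was not tested.

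Other genes of the cycle, listed by function and not among the 50, were set beside them. Of 53 further mitosis genes, 25 were higher (47.2%, against 6.03% of all genes) and 0 lower (against 4.07%) at 16 weeks than in wild type (median 0.44). At 24 weeks, 35 were higher (66.0%, against 11.6% of all genes) and 1 lower (against 11.3%). The largest at 16 weeks were Depdc1a (3.55-fold, 1.83 ± 0.33, adjusted p = 0.00472), the chromosome motor Kif22 (3.00-fold, 1.59 ± 0.15, adjusted p = 7.66e-05), the cohesion factor Cdca5 (2.64-fold, 1.40 ± 0.17, adjusted p = 0.000413) and Lmnb1, lamin B1 of the nuclear envelope (2.15-fold, 1.11 ± 0.11, adjusted p = 7.7e-05). The gene lower at 24 weeks was Pttg1, securin, which holds back the separation of sister chromosomes (-0.76, adjusted p = 0.000103). Kif22, Cdca5 and Lmnb1 were also called higher at 8 weeks than in wild type, by 1.07, 0.92 and 0.62.

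Of 30 further replication genes, 7 were higher (23.3%, against 6.03% of all genes) and 2 lower (against 4.07%) at 16 weeks (median 0.07). At 24 weeks, 11 were higher (36.7%, against 11.6% of all genes) and 2 lower (against 11.3%). Uhrf1, which helps copy DNA methylation, rose by 1.44 ± 0.20 (adjusted p = 0.000978), and Dbf4, the activator of the origin kinase, by 1.40 ± 0.25 (adjusted p = 0.00421). Tk1, thymidine kinase, rose by 1.21 ± 0.19 (adjusted p = 0.00204) and Asf1b, a histone chaperone, by 1.02 ± 0.14 (adjusted p = 0.000646). The genes lower were Prim1, a primase subunit (-0.49 ± 0.11, adjusted p = 0.0196), and Rfc5, a subunit of the clamp loader (-0.31 ± 0.08, adjusted p = 0.0236).

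Of 20 further genes of G1 and S phase entry, 4 were higher (20.0%, against 6.03% of all genes) and 0 lower at 16 weeks (median 0.06). At 24 weeks, 5 were higher (25.0%, against 11.6% of all genes) and 1 lower (against 11.3%). Those higher at 16 weeks were E2f7 (1.02 ± 0.21, adjusted p = 0.00886) and E2f8 (0.86 ± 0.12, adjusted p = 0.000978), which are repressors, the activator E2f2 (0.81 ± 0.15, adjusted p = 0.00449) and the phosphatase Cdc25b (0.38 ± 0.08, adjusted p = 0.0132). Cyclin D3 ran against cyclin D1: Ccnd3 was lower at 24 weeks than in wild type (-0.72, adjusted p = 0.00712) and than at 16 weeks (-0.61 ± 0.16, adjusted p = 0.048), while Myc, a growth regulator, was higher at 24 than at 16 weeks (0.75 ± 0.08, adjusted p = 0.00332). Of 21 brakes of the cycle, 2 were higher at 16 weeks (9.52%, against 6.03% of all genes), with a median of 0.09 over the list. They were the inhibitor Cdkn2c (0.45 ± 0.12, adjusted p = 0.0411) and the checkpoint kinase Chek1 (0.39 ± 0.10, adjusted p = 0.0314). Against wild type, 4 brakes were higher at 24 weeks (19.0%, against 11.6% of all genes). At 24 weeks Gadd45a, a stress-response gene, was higher than at 16 weeks (0.95 ± 0.18, adjusted p = 0.0166), as was Rbl1, the pocket protein p107 (0.76 ± 0.18, adjusted p = 0.0318).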

How the data were processed

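Aortic arch RNA of 12 pools was measured on 2-colour arrays. Per the labels' protocols, total RNA went over RNeasy columns with a DNase step and was amplified and labelled by an automated aminoallyl method, with no dye swap. The authors deposited 1 log ratio per probe for 39556 probes, read here as log10 of pool over reference. The labels name no scanner, background correction, normalization or build. The log base and the direction were inferred from the values. The ratio of Pth in pool 10 needs a share of 15.7% of the mixed reference from that pool in base 10 and 43.6% in base 2. This takes pool 10 to be part of the reference, which the vehicle label of the reference leaves unclear. Apoe lay far above the reference in wild type only. As deposited, column medians lay between -0.0025 and 0.0181, so the arrays were centred by a method that stays unknown, and genes were not centred. Ratios carry no intensity, so the distance from background is unknown and a fold can be too small; the number of arrays limits the precision. No column was left out (0 not used).

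The ratios were multiplied by 3.322 to give log2 values, probes of a gene were averaged, and symbols were updated through GRCm38.p6 (5952 of 20551 symbols replaced; 23283 probes had 1 symbol, 0 several and 16273 none). Of 19896 genes, the 19705 with a value on every array entered a fit of 4 group means with limma 3.58.1 under R 4.3.3 (functions lmFit, eBayes; 8 residual and 2.95 prior degrees of freedom). Tests are two-sided, with p adjusted over all 19705 genes after Benjamini and Hochberg, called under 0.05, and intervals are of 95%. The code was tested on simulated data. The series' design text describes 3 pools of 3 mice for each group, so the spread behind each p is that between pools.

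The members, the gene lists and the rule for named genes were chosen with earlier results of these data known. The rule names, per role, the gene with the largest difference at 16 weeks and those of opposite sign, with Mki67, Ccnd1 and Pcna, and up to 4 called genes of each further list. Other genes in the text were named after their values were seen, to show called genes, probe disagreement or lost calls. Alternatives were arrays centred on the median, quantile normalization, array weights, a fit of only the 2 groups compared, the most variable probe of a gene, leaving out pools 3 and 6, and leaving out each pool.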

Additional observations from a re-analysis of the deposited data

How the results depend on the processing

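Alternatives were run for the members and not for the further lists. Of the single results of members under alternatives that kept all pools or left out pools 3 and 6, 550 kept direction and side of the threshold, 85 newly passed it, 61 no longer passed it and 1 turned direction: Ccnd1 at 16 weeks minus wild type, -0.19 under quantile normalization (adjusted p = 0.486). No paired analysis was possible because no pool number is shared between groups. The cause of the changes below was not tested. Against wild type, quantile normalization gave 6 genes higher (2.03% of all genes) and 1 lower (493 of all 19705 genes) at 16 weeks. It gave 2 lower at 24 weeks (2512 of all genes) and 0 higher at 8 weeks (0.0% of all genes) against wild type. Between 16 and 8 weeks it gave 0 higher (0.00507% of all genes). Between 24 and 16 weeks it gave 19 higher (13.1% of all genes) and 1 lower (2462 of all genes). It gave score differences against wild type of 0.24 at 16 weeks and 0.59 at 24 weeks over all members, 0.34 and 0.66 over mitosis genes, and 0.06 at 16 weeks over S phase genes. Against wild type, array weights gave 2 lower at 16 weeks (3302 of all 19705 genes) and 2 lower at 24 weeks (4823 of all genes). At 8 weeks against wild type they gave 5 higher (2.17% of all genes) and 1 lower (266 of all genes). They gave 1 higher between 16 and 8 weeks (1.23% of all genes) and 2 lower between 24 and 8 weeks (2518 of all genes). Between 24 and 16 weeks they gave 20 higher (15.8% of all genes) and 1 lower (3174 of all genes). Fits of only the 2 groups compared gave 1 lower at 16 weeks (891 of all genes) and 0 higher at 8 weeks (0.117%) against wild type. They gave 0 higher between 16 and 8 weeks. Between 24 and 16 weeks they gave 14 higher (10.0% of all genes) and 1 lower (1353 of all genes). Between 24 and 8 weeks they gave 23 higher (9.51% of all genes) and 0 lower (1393 of all genes). Without pools 3 and 6 there were 3 higher at 8 weeks against wild type (1.21% of all genes) and 0 higher between 16 and 8 weeks (0.614%). There were also 1 higher between 24 and 16 weeks (0.624% of all genes) and 0 lower between 24 and 8 weeks (2119 of all genes). Centring on the median gave 4 higher at 8 weeks against wild type (2.07% of all genes). Array weights turn on how far each array stands from its group, and their whole-table counts moved too: 11.7% of all genes were higher at 16 weeks than in wild type.

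Leaving out 1 pool at a time gave 0 to 6 genes higher and 0 to 2 lower at 8 weeks against wild type, 17 to 26 higher and 0 to 2 lower at 16 weeks against wild type, and 31 to 35 higher and 1 to 2 lower at 24 weeks against wild type. It gave 0 to 9 higher and 0 to 0 lower between 16 and 8 weeks, 1 to 9 higher and 0 to 0 lower between 24 and 16 weeks, and 22 to 36 higher and 0 to 1 lower between 24 and 8 weeks. The highest counts came without pool 2 at 8 weeks against wild type (6, where 2.48% of all genes were higher) and without pool 1 between 16 and 8 weeks (9, 2.88%). Between 24 and 16 weeks the highest came without pool 2 (9, 7.96%). The lowest between 24 and 8 weeks came without pool 11 (22, 8.77%). At 16 weeks against wild type the count was 17 without pool 4 (4.39%) and 26 without pool 2 (7.95%). At 24 weeks against wild type it was 31 without pool 11 (8.71%) and 35 without pool 1 (12.0%). The count at 8 weeks against wild type was also 2 without pool 3, 3 without pool 6 and 0 without pool 4, 10, 11, 12, 16, 17 or 18. That between 16 and 8 weeks was 4 without pool 6, 1 without pool 2, 10, 12, 16, 17 or 18, and 0 without pool 3, 4 or 5. That between 24 and 16 weeks was 1 without pool 4, 6, 11 or 12, and 2 without pool 10, 16 or 17. Over all members the score difference was 0.10 to 0.25, 0.45 to 0.57 and 0.71 to 0.82 at 8, 16 and 24 weeks against wild type, 0.25 to 0.40 between 16 and 8 weeks, 0.21 to 0.33 between 24 and 16 weeks and 0.51 to 0.68 between 24 and 8 weeks.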
